A study of Xenopus laevis with 3 samples.

Results

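The miR-25 and miR-92 family was followed in 3 small RNA libraries from neuronal tissue of the accessory olfactory bulb of 15-day-old larvae (stage 45) of the frog Xenopus laevis. The family was taken as the rows named miR-25, miR-92a, miR-92b or miR-363, with any arm suffix, under the Xenopus prefixes xtr (X. tropicalis), xla (X. laevis) and xbo (X. borealis). That gave 8 of the 1272 rows of the table and 8 of its 178 Xenopus rows, with 7 distinct sequences. The libraries came from orphan, sibling and non-sibling rearing, with 1 library per condition (n = 1) and no replicate, so that no test between conditions is possible. The accessory olfactory bulb is the forebrain relay of the vomeronasal system, and the study, by its title, concerns microRNA control of a transmitter switch that affects social preference. The labels name 15 larvae without a number per condition, and they do not describe the rearing. Values of the 3 libraries stand in the order orphan, sibling, non-sibling, called library order here. The family was chosen because it stood out in the sibling library. Its values against that library are therefore descriptions of 3 libraries, not evidence about rearing.

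MicroRNAs of this family load onto Argonaute and pair with messenger RNAs mainly through the seed, the stretch from base 2 to base 8, so that members with 1 seed can share targets. In mammals miR-92a is made from both the miR-17-92 cluster and its paralog, the miR-106a-363 cluster, which also makes miR-363. There miR-25 lies in an intron of Mcm7 with miR-93 and miR-106b, and miR-92b has a locus of its own. miR-92b is known from mouse cortex, where it restrains the transcription factor Tbr2 in progenitors, and miR-25 with its cluster supports division of adult neural stem cells of the mouse. Members of the family are broadly known for dampening regulators of cell death and of the cell cycle in mammals.

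The sequences are shown because the rows that shared a seed did not share a pattern across the libraries. Each is the mature sequence from the deposited table, 5′ to 3′, with the seed in capitals.
xtr-miR-92b: uAUUGCACucgucccggccuc
xbo-miR-92a: uAUUGCACucgucccggccugac
xtr-miR-92a: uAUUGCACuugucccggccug
xtr-miR-25: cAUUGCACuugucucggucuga
xtr-miR-363-3p: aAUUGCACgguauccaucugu
xbo-miR-92b: uACUGCACucgucccggccuagc
xtr-miR-363-5p: cGGGUGGAucacgaugcaauuu
The first 5 rows carry 1 seed. xbo-miR-92b differs from xtr-miR-92a inside the seed (U3C, counted from 1 at the 5′ end of xtr-miR-92a), and xtr-miR-363-5p, the opposite arm of the miR-363 precursor, has an unrelated seed. xla-miR-363 has the sequence and the counts of xtr-miR-363-5p and was treated as the same measurement. Behind the seed, xtr-miR-92b differs from xtr-miR-92a at 2 positions, U10C and G21C. xbo-miR-92a, in spite of its name, shares U10C with xtr-miR-92b and is identical to it over the first 20 bases. Against xtr-miR-92a, xtr-miR-25 carries U1C, C14U and C18U.

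The libraries differed widely in depth, which bears on every value. Total counts were 22538325, 865654 and 5188106 in library order, and 1 count stood for 0.0460, 1.41 and 0.152 scaled CPM (CPM being counts relative to the library size, here after scaling by trimmed means of M values). Intervals given here cover counting error only and treat reads as independent. Amplified reads are not independent molecules, so the intervals may be too narrow even for that error. Near-identical rows of many species hold many of the same reads, so rows are not independent. The 11 rows of neuronal microRNAs (miR-9, miR-124, miR-128, miR-129, miR-137, miR-153 and miR-218) had summed levels of 15688, 9713 and 19281 scaled CPM in library order, most of it from miR-9, whose 5p reads are listed under 2 rows with equal counts. Rows of the gut (miR-192, miR-194, miR-215) summed to 448, 1328 and 1343 scaled CPM. Those of muscle (miR-1, miR-133, miR-206) summed to 4655, 4442 and 2792, those of skin (miR-203, miR-205) to 2939, 4161 and 4371, and those of red blood cells (miR-144, miR-451) to 18.4, 8.48 and 33.0, with 3 counts for each of the latter in the sibling library. All rows of these lists had at least 1 count in each library, and in the sibling library xtr-miR-1b, xtr-miR-137 and xtr-miR-153 had 1, 2 and 3. The neuronal sum was thus lowest in the library with the most miR-92b, but not all of its rows were. xtr-miR-129 was highest in the sibling library, at 145, 253 and 224 scaled CPM in library order. So was xtr-miR-153, at 3.17, 4.24 and 1.22, and xtr-miR-218 was at 76.7, 79.2 and 94.3. The other rows of the list were lowest in the sibling library. Rows of the other lists did not all follow their sums either, and none of those sums was highest in the sibling library. xtr-miR-192, xtr-miR-133c, xla-miR-133b, xla-miR-133d, xtr-miR-206, xtr-miR-205a, xtr-miR-205b and xtr-miR-144 were highest there, and the remaining rows of those lists were not. The part of neuronal content in the values below was not tested. In such bulk tissue fewer cells of a type and less RNA per cell cannot be told apart.

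xtr-miR-92b was the leading row of the sibling library. It held 83298, 44582 and 20554 counts in library order, or 3828, 63030 and 3125 scaled CPM. The sibling library thus stood alone, and the other two lay close together. The sibling level was 16.5 times the orphan level (95% counting interval 16.3 to 16.7) and 20.2 times the non-sibling level (19.8 to 20.5). Among the 170 distinct Xenopus sequences it ranked 15, 1 and 15 in library order. Its share of the counts of those sequences was 1.86%, 24.2% and 1.997% in library order. In the sibling library it had 2.86 times the counts of the next distinct Xenopus row, xtr-miR-204.

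xbo-miR-92a, the row that shares its first 20 bases with xtr-miR-92b, held 9686, 4520 and 3299 counts in library order. These counts gave 445, 6390 and 502 scaled CPM, with the sibling library again far above the others. The sibling level was 14.4 times the orphan level (13.9 to 14.9) and 12.7 times the non-sibling level (12.2 to 13.3). Its rank among Xenopus sequences was 47, 8 and 42. The row, like the xtr rows, names another species than the one sampled. xbo-miR-92a may share its reads with xtr-miR-92b, so it is no second measurement.

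xtr-miR-92a, a microRNA of these clusters and the most abundant member in the orphan and non-sibling libraries, was also highest in the sibling library, by much less. Its counts were 183596, 15081 and 47469, or 8437, 21322 and 7218 scaled CPM in library order. The sibling level was 2.53 times the orphan level (2.49 to 2.57) and 2.95 times the non-sibling level (2.90 to 3.01). This call depended on the processing. With the authors' quantile normalization the log2 ratio was -0.54 for orphan over sibling and -0.63 for non-sibling over sibling, both short of a 2-fold difference. With total counts as library sizes it was -0.93 for non-sibling over sibling, and after subtraction of a GC and length trend it was -0.45 for orphan over sibling. xtr-miR-92a ranked 6, 5 and 7 among Xenopus sequences, so its place among them hardly differed. Over all rows of the table it ranked 28, 19 and 37.

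**Figure D1:**
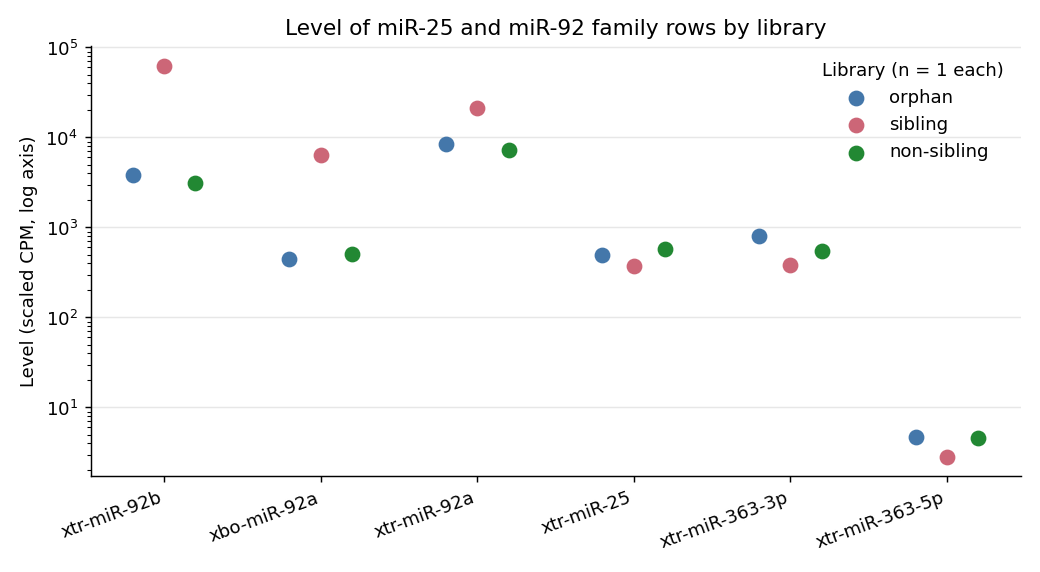
Level of each family row in scaled CPM (log axis) in the 3 libraries, 1 point per library and no error bar because n = 1. The sibling point lies far above the others for xtr-miR-92b and xbo-miR-92a, moderately above for xtr-miR-92a, and below them for xtr-miR-25 and both arms of xtr-miR-363 (xbo-miR-92b, at 0, 2 and 0 counts, is not drawn).

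xtr-miR-25, which shares the seed and is known from progenitors, did not show the sibling excess. It held 10699, 264 and 3795 counts in library order, or 492, 373 and 577 scaled CPM, lowest in the sibling library. Its orphan over sibling ratio was 1.32 (1.17 to 1.49) and its non-sibling over sibling ratio 1.55 (1.36 to 1.76). Neither reached a 2-fold difference. Scaled by total counts, the second was at a log2 ratio of 1.26, past it.

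xtr-miR-363-3p, the main arm of miR-363, was lowest in the sibling library as well. Its counts were 17274, 272 and 3620, or 794, 385 and 550 scaled CPM in library order. Its orphan over sibling ratio was 2.06 (1.83 to 2.34), and its non-sibling over sibling ratio 1.43 (1.27 to 1.63). The first of these sat at the edge of the 2-fold rule and fell short of it, at a log2 ratio of 0.93, when scaling used Xenopus rows alone. The opposite arm, xtr-miR-363-5p, held 101, 2 and 30 counts, or 4.64, 2.83 and 4.56 scaled CPM. With 2 sibling counts, its orphan over sibling ratio of 1.64 had an interval from 0.443 to 13.7, and its non-sibling over sibling ratio of 1.61 one from 0.409 to 13.9. No difference of that arm was detectable at this depth. The 3p arm had 171 (141 to 210.1), 136 (37.3 to 1129) and 121 (84.4 to 179) times the counts of the 5p arm in library order, intervals that overlap.

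xbo-miR-92b, the row with a changed seed, had 0, 2 and 0 counts in library order. All are at or under a floor of 3 counts, which stood for 0.138, 4.24 and 0.456 scaled CPM, and no ratio is given. It was the only member below the minimum of 30 counts summed over the libraries.

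A row was counted as higher or lower when its ratio was at least 2, or at most 0.5, and its counting interval excluded 1. Of the 7 members with enough counts (6 distinct sequences), 3 were lower in the orphan than in the sibling library (xtr-miR-92b, xbo-miR-92a and xtr-miR-92a), 1 was higher (xtr-miR-363-3p) and 3 were neither. Over the 866 rows with enough counts, 15.5% were lower and 8.89% higher in that comparison, and over the 156 distinct Xenopus sequences with enough counts 14.1% and 8.97%. The same 3 members were lower in the non-sibling than in the sibling library, none was higher and 4 were neither, where 12.1% of all rows were lower and 11.2% higher, and 10.3% and 14.1% of the Xenopus sequences. Nothing is read from these counts, since the excess in the sibling library chose the members, both comparisons share that library, and the lower members hold overlapping reads. The median log2 ratio of the members was 0.39 for orphan over sibling and 0.39 for non-sibling over sibling, beside 0.06 and -0.03 over all rows. With xtr-miR-363-5p and xla-miR-363 taken as 1, the medians over the 6 distinct sequences were -0.47 and -0.59, so the sign of the median rested on that duplicate.

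**Figure D2:**
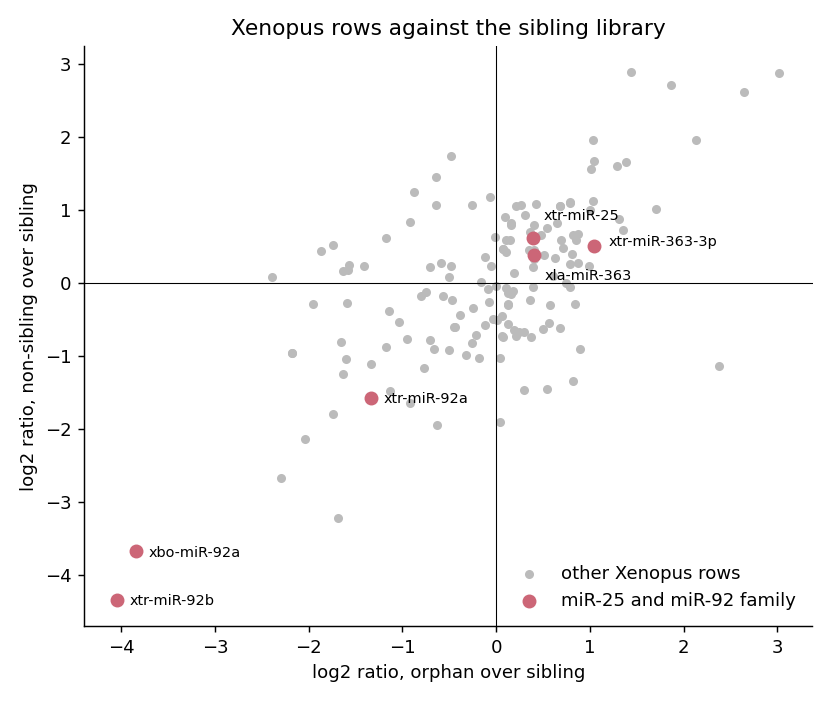
The log2 ratio of orphan over sibling (x axis) against that of non-sibling over sibling (y axis) for the 156 distinct Xenopus sequences with enough counts, with family members in red. Both axes share the sibling library, so nothing is read from the alignment of the points. xtr-miR-92b (-4.04, -4.33) and xbo-miR-92a (-3.84, -3.67) lie at the far lower left, while xtr-miR-25 and the miR-363 rows (the point labelled xla-miR-363 stands for xtr-miR-363-5p too) lie in the upper right.

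Between the orphan and non-sibling libraries, the deeper pair, the members' ratios stayed short of 2-fold. Of the 7 members with enough counts, none was higher or lower by the 2-fold rule, against 7.51% of all rows higher and 12.6% lower there, and 8.97% and 12.8% of the Xenopus sequences. With 7 members such a count is near those shares, and 5 of the 6 distinct sequences had counting intervals that excluded 1. The orphan level of xtr-miR-92b was 1.22 times the non-sibling level (1.21 to 1.24) and that of xtr-miR-92a 1.17 times (1.16 to 1.18). Both ratios turned below 1 under total counts, at log2 values of -0.10 and -0.17. Near-identical rows of all species, taken up below, had medians below 1. xtr-miR-363-3p had the highest ratio, 1.44 (1.39 to 1.495). xtr-miR-25 had the lowest, 0.852 (0.821 to 0.884), next to xbo-miR-92a at 0.887 (0.853 to 0.923). xtr-miR-363-5p was at 1.02 (0.671 to 1.58), an interval that includes 1.

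Ratios between members of 1 library do not depend on how libraries are scaled, so the make-up of the family was compared on counts alone. They do depend on how reads were assigned to rows, which the intervals do not cover. ola-miR-92a, of the same sequence as xtr-miR-92a, held more counts, 220561, 19501 and 58312 in library order. Of the summed counts of xtr-miR-92a, xtr-miR-92b, xtr-miR-25 and xtr-miR-363-3p, xtr-miR-92b made up 28.2% (28.1 to 28.4%), 74.1% (73.7 to 74.4%) and 27.2% (26.9 to 27.6%) in library order, with 95% exact binomial intervals. xtr-miR-92a made up 62.3%, 25.1% and 62.9% in the same order. The share of xtr-miR-25 was lowest in the sibling library, at 3.63%, 0.439% and 5.03%, and so was that of xtr-miR-363-3p, at 5.86%, 0.452% and 4.80%. The lead thus passed from miR-92a to miR-92b in the sibling library. The orphan and non-sibling libraries were close in their shares of xtr-miR-92a and xtr-miR-92b, though these differed beyond counting error. For xtr-miR-92a the intervals were 62.1 to 62.4% and 62.6 to 63.3%. Their shares of xtr-miR-25 and xtr-miR-363-3p also differed beyond counting error and stood in opposite order.

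Counts of xtr-miR-92b per count of xtr-miR-92a were 0.454 (0.450 to 0.457), 2.96 (2.90 to 3.01) and 0.433 (0.426 to 0.440) in library order. The sibling value was 6.52 times the orphan value and 6.83 times the non-sibling value. Counts of xtr-miR-92a per count of xtr-miR-25 were 17.2 (16.8 to 17.5), 57.1 (50.6 to 64.8) and 12.5 (12.1 to 12.9). Members with the same seed thus differed in their sibling values. The sibling excess was larger for miR-92b than for miR-92a, and miR-25, lowest in that library in scaled CPM, had none. Counts of xtr-miR-363-3p per count of xtr-miR-25 were 1.61 (1.58 to 1.65), 1.03 (0.867 to 1.23) and 0.954 (0.911 to 0.999), so for this pair it was the orphan library that stood apart.

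**Figure D3:**
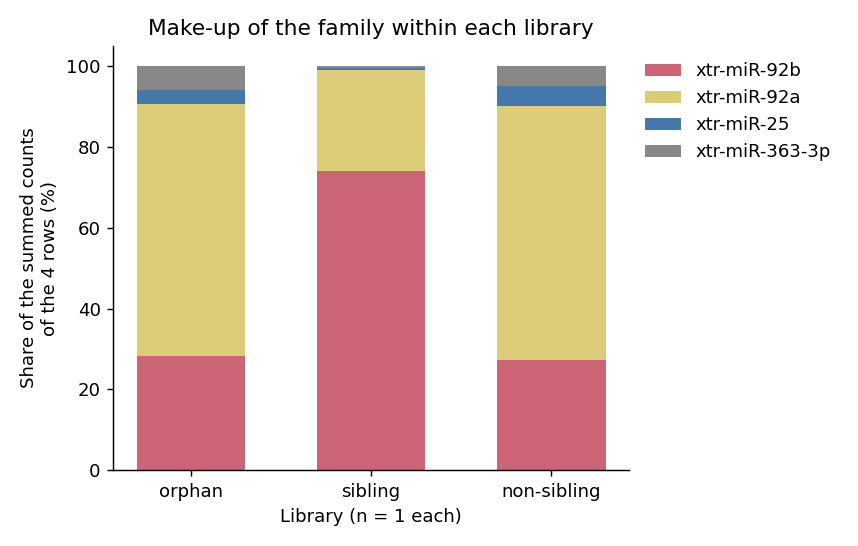
Share (%) of each row in the summed counts of xtr-miR-92b, xtr-miR-92a, xtr-miR-25 and xtr-miR-363-3p, stacked to 100 for each library (n = 1 each). xtr-miR-92b takes 74.1% of the sibling bar against 28.2% of the orphan and 27.2% of the non-sibling bar.

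Rows of all species were then sorted by their sequence. The table holds 48 rows with the seed of xtr-miR-92a, from miR-25, miR-32, miR-92, miR-235, miR-363 and miR-367. These rows took 5.46%, 23.7% and 6.67% of all counts in library order. All rows of the table were split by whether they contain bases 2 to 18 of xtr-miR-92b or bases 2 to 18 of xtr-miR-92a. These stretches differ only at base 10, in capitals here.
xtr-miR-92b: uauugcacuCgucccggccuc
xbo-miR-92a: uauugcacuCgucccggccugac
xtr-miR-92a: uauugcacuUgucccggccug
The split was chosen after values had been seen, and rows of 1 core largely recount the same reads, so their likeness is no independent evidence. All 11 rows with the miR-92b core were lower in the orphan than in the sibling library, with ratios from 0.0287 to 0.0791. All 19 rows with the miR-92a core were lower too, with ratios from 0.173 to 0.396, a range that does not meet the first. xtr-miR-92a was at the upper end of its range, the smallest sibling excess. The medians of the miR-92b and miR-92a cores were 0.0697 and 0.207. Of all rows with enough counts 15.5% were lower there. For non-sibling over sibling the ranges were 0.0359 to 0.0822 and 0.295 to 0.339, again with no overlap, where 12.1% of all rows were lower. The sibling excess chose the family, so nothing is read from these counts of rows. For orphan over non-sibling no row of either core reached 2-fold, against 7.51% of all rows higher and 12.6% lower. The ranges, 0.756 to 1.22 and 0.535 to 1.17, overlapped. xtr-miR-92b and xtr-miR-92a were at their upper ends, and the medians were 0.887 and 0.648. The direction for this pair of libraries thus depended on the row.

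Names and sequences did not always match across species. Of the rows called miR-92b in other species, bta-miR-92b carries the miR-92b core, with 75838, 42385 and 19301 counts, and its orphan over sibling ratio was 0.0582. bfl-miR-92b-3p carries it with another first base and was at 0.0307 on 17, 18 and 6 counts. sko-miR-92b, ola-miR-92b, cin-miR-92b-3p and aae-miR-92b-3p carry the miR-92a core instead. Their orphan over sibling ratios were 0.2975, 0.206, 0.207 and 0.209, inside the range of the miR-92a core. Conversely pma-miR-92a and odi-miR-92a, like xbo-miR-92a, carry the miR-92b core and were at 0.0698 and 0.0791. oan-miR-92b carries neither core and was at 0.249 on 23, 3 and 13 counts (0.0753 to 1.30), an interval that includes 1.

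Of the 22 rows with the seed and neither core, 9 had enough counts. Among these, bta-miR-25 and ccr-miR-363, chosen after their values were seen, were close to the Xenopus rows of their name. bta-miR-25 was at 1.32 for orphan over sibling and 1.55 for non-sibling over sibling, and ccr-miR-363 at 2.06 and 1.41. The rows with most counts in this seed group were dre-miR-92a and ola-miR-92a, each with 220561, 19501 and 58312 counts. ola-miR-92a has exactly the sequence of xtr-miR-92a, yet xtr-miR-92a was given fewer counts, so rows of 1 sequence were not always given the same reads. sha-miR-92a, 18 bases long, had 165560, 14102 and 44160 counts.

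**Figure D4:**
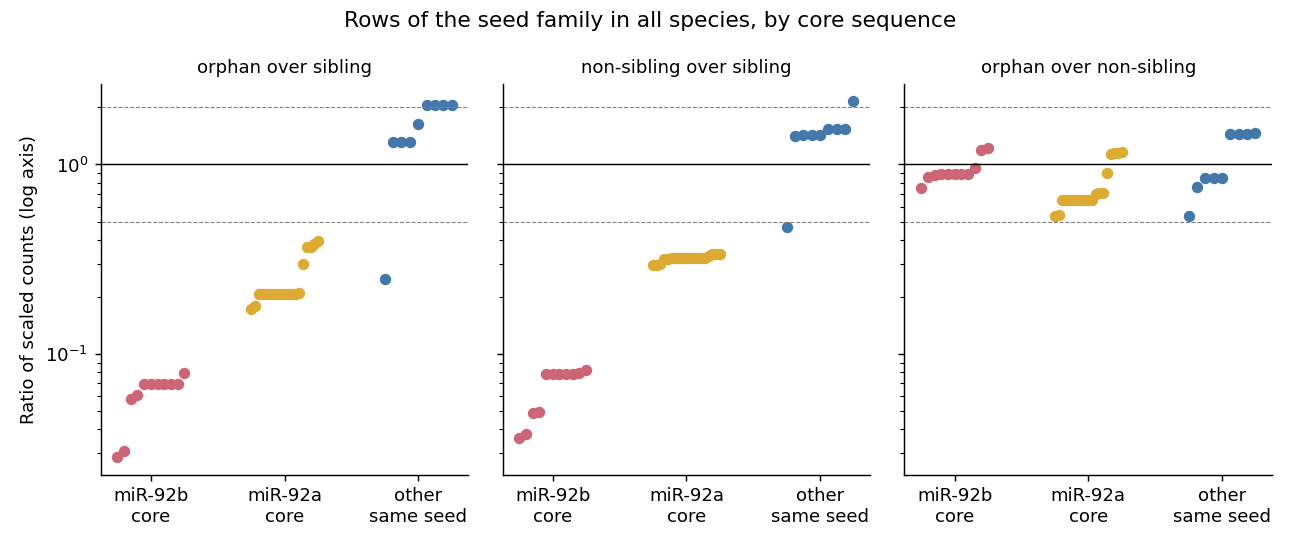
Ratio of scaled counts (log axis) for each pair of libraries, 1 point per row of any species with at least 30 counts in all, grouped by the miR-92b core (11 rows), the miR-92a core (19 rows) and the remaining rows with the same seed (9 rows). Dashed lines mark ratios of 2 and 0.5. Against the sibling library the miR-92b core lies below 0.09, the miR-92a core between 0.17 and 0.40 and all remaining rows but oan-miR-92b above 1, while for orphan over non-sibling the groups overlap.

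Rows that differ at the 3′ end from a Xenopus row differed in their counts. bma-miR-92, whose 20 bases are the first 20 of xtr-miR-92b, had exactly the counts of xbo-miR-92a, 11.6%, 10.1% and 16.1% of the xtr-miR-92b count in library order. The longer bta-miR-92b, which begins with all 21 bases of xtr-miR-92b, had 91.0%, 95.1% and 93.9% of that count. The row that includes the last base of xtr-miR-92b was thus close to it in all 3 libraries, and the row that lacks it far below. For miR-92a, aae-miR-92a-3p, which shares the first 20 bases, had 6.15%, 11.8% and 11.1% of the xtr-miR-92a count in library order. sha-miR-92a, only the first 18 bases of xtr-miR-92a, also lacks its last base, yet was close to it. It had 165560, 14102 and 44160 counts, against 183596, 15081 and 47469 for xtr-miR-92a. The last base thus did not set these rows apart in general. The rule by which reads were assigned to rows is not stated, and what these shares say of 3′ ends was not tested.

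GC content differed between the members and is given beside their ratios. xtr-miR-92b has 61.9% GC and xtr-miR-92a 57.1%, against 50.0% for xtr-miR-25, 42.9% for xtr-miR-363-3p and a median of 43.5% for the 156 Xenopus sequences. Across those sequences Spearman's rho between GC content and the log2 ratio was -0.20 for orphan over sibling, -0.02 for non-sibling over sibling and -0.13 for orphan over non-sibling. Over the 866 rows of all species with enough counts rho was -0.24, -0.16 and -0.10 in the same order. These are descriptions across rows of the same libraries, which also share base composition and reads. The 9 other Xenopus sequences with at least the GC content of xtr-miR-92a had log2 ratios from -1.74 to 0.50 for orphan over sibling and from -1.79 to 1.46 for non-sibling over sibling. xtr-miR-92b, at -4.04 and -4.33, lay outside both ranges. It was chosen for its excess in the sibling library, so nothing is read from that place. The part of GC content in its ratios was not tested. After subtraction of a linear trend on GC and length, a setting added once the data had been seen, xtr-miR-92b was at -2.88 and -3.58.

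The partners of the family in its clusters were counted by the same rule. The miR-17-92, miR-106b-25 and miR-106a-363 clusters also encode miR-17, miR-18, miR-19, miR-20, miR-93 and miR-106, and 11 Xenopus rows carried the names searched for, all with enough counts. Besides these, xla-miR-18 and xla-miR-20 repeat the sequences and counts of xtr-miR-18b and xtr-miR-20b and were not counted again. For orphan over sibling 1 was lower and none higher, beside 15.5% and 8.89% of all rows, 10 were neither, and the median log2 ratio was 0.19. For non-sibling over sibling 2 were lower and 1 higher, beside 12.1% and 11.2% of all rows, 8 were neither, and the median was 0.15. These counts are near those shares and are no result about the partners. xtr-miR-17-3p had 0 sibling counts, and with it at its bound the medians were 0.17 and 0.01. xtr-miR-17-5p, of the miR-17-92 cluster, was at 182, 137 and 189 scaled CPM in library order. Its orphan over sibling ratio was 1.32 (1.08 to 1.64) and its non-sibling over sibling ratio 1.38 (1.12 to 1.72). xtr-miR-20a-5p, of the same cluster, was at 74.6, 58.0 and 80.7 scaled CPM. xtr-miR-93a, the neighbour of miR-25 in mammals, was at 355, 329 and 444. Its orphan over sibling ratio of 1.08 (0.945 to 1.23) did not differ from 1 beyond counting error. Its non-sibling over sibling ratio of 1.35 (1.18 to 1.55) did, short of 2-fold.

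xtr-miR-18a-3p was the partner that was lower in both comparisons with the sibling library. It had 265, 35 and 75 counts, or 12.2, 49.5 and 11.4 scaled CPM in library order. Its orphan over sibling ratio was 0.246 (0.173 to 0.361) and its non-sibling over sibling ratio 0.230 (0.152 to 0.355). The opposite arm, xtr-miR-18a-5p, was at 34.3, 29.7 and 28.1 scaled CPM, with ratios of 1.15 (0.750 to 1.88) and 0.947 (0.602 to 1.57). On 746, 21 and 185 counts, it had more than the 3p arm in the orphan and non-sibling libraries and fewer in the sibling library. The arms of 1 precursor thus differed in pattern. xtr-miR-19a was the other partner lower in the non-sibling than in the sibling library, at 0.272 (0.146 to 0.533) on 15 sibling counts. xtr-miR-20b was the partner that was higher there, at 2.15 (1.67 to 2.83). For orphan over non-sibling xtr-miR-19a was at 3.89 (2.79 to 5.56) and xtr-miR-19b at 2.46 (2.13 to 2.86), and the other 9 partners were neither higher nor lower. Of all rows with enough counts 7.51% were higher and 12.6% lower there, and nothing is read from the count of partners.

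The Xenopus rows outside the family whose pattern was most like that of xtr-miR-92b were then sought. Likeness was measured as the distance between rows in the plane of both log2 ratios against the sibling library, over 3 libraries and 133 Xenopus rows with at least 150 counts in all. The nearest was xtr-miR-125a, of a family known from neural differentiation, at a distance of 2.42, where xbo-miR-92a was at 0.69 and xtr-miR-92a at 3.87. xtr-miR-125a had 58918, 9434 and 13897 counts, with ratios of 0.203 (0.199 to 0.207) for orphan over sibling and 0.158 (0.154 to 0.163) for non-sibling over sibling. xtr-miR-18a-3p followed at 2.98, xtr-miR-193 at 3.43, xtr-let-7i at 4.08 and xtr-miR-30c at 4.13. xtr-miR-193, at 62.5% GC, had ratios of 0.300 (0.274 to 0.328) and 0.290 (0.263 to 0.321).

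The authors' deposited table compares quantile-normalized counts. There the log2 ratio of sibling over orphan was 3.20 for xtr-miR-92b, 3.89 for xbo-miR-92a, 0.54 for xtr-miR-92a, -0.51 for xtr-miR-25 and -1.02 for xtr-miR-363-3p. For non-sibling over sibling the authors' deposited table gives log2 ratios of -3.47, -3.83, -0.63, 0.64 and 0.44 in the same order. For non-sibling over orphan the log2 ratios of the authors' deposited table are -0.27, 0.06, -0.09, 0.13 and -0.59. In both comparisons with the sibling library the authors' deposited table puts xbo-miR-92a ahead of xtr-miR-92b, the reverse of their order in scaled counts.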

How the data were processed

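The deposited table gives a read count per mature microRNA row and library, per the file headers, with no normalization. It also holds a signal computed by the authors from these counts, the quantile-normalized counts, and the log2 ratio of that signal between libraries, as deposited by the authors after adding an offset that the headers do not name. No source used here names the aligner, the microRNA release or the read assignment, and the labels name a preparation kit for messenger RNA. The 1 line without a microRNA name was left out. No genome was used, so no positions are given.

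Samples were grouped by their titles, 1 library each. Counts were scaled by library totals times TMM factors (edgeR 4.0.16, R 4.3.3) computed over the 866 rows with a sum of at least 30 counts (0.966, 0.817 and 1.27 for orphan, sibling, non-sibling). That TMM used these rows and not all 1272 was decided after the data were seen, to match earlier work on them; scaling over all rows is the alternative with no filter. Ratios carry exact conditional 95% intervals. Log2 ratios have 0.5 added to each count. With 1 library per condition no test was run. Against 0 counts a ratio was computed at a floor of 3 counts. Totals counted reads repeatedly, because species share sequences, and are relative depths. Calculations used Python 3.11.15, numpy 2.4.6, pandas 2.3.3 and scipy 1.17.1, plots matplotlib 3.10.9. The calculation was run on simulated independent counts with known library sizes. That does not test the scaling, the repeated counting of reads or the spread between libraries.

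The members and lists were chosen with earlier results of these data known. Named rows were all members, Xenopus rows of the cluster partners, the 6 same-seed rows with most counts, 1 row per distinct same-seed miR-92b sequence and the 5 rows most like xtr-miR-92b. Other rows named were chosen after their values were seen. They were those sharing the first 20 bases, pma-miR-92a, odi-miR-92a, bta-miR-25, ccr-miR-363, xtr-miR-204, xtr-miR-367, hsa-miR-92a-2-5p and oan-miR-92a-1-5p. Alternatives were other scalings, no filter, 5 added counts and the authors' quantile normalization. Leaving out the same-seed rows from scaling and removing a GC and length trend were chosen after seeing the data.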

Additional observations from a re-analysis of the deposited data

How the results depend on the processing

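xtr-miR-92b stayed past 2-fold below the sibling level under all 9 alternatives, and short of 2-fold between orphan and non-sibling. Its log2 ratios (orphan over sibling, non-sibling over sibling, orphan over non-sibling) were -3.80, -3.70 and -0.10 with total counts, the last with its sign turned; -3.21, -3.48 and 0.27 with quantile normalization; -4.16, -4.30 and 0.14 with Xenopus rows alone; -4.00, -4.36 and 0.37 with no filter; and -2.88, -3.58 and 0.63 with the GC and length trend removed. For orphan over sibling and orphan over non-sibling they were -4.07 and 0.26 with RLE factors, -3.88 and 0.45 with upper-quartile factors and -4.13 and 0.20 with scaling without same-seed rows. The cause was not tested. Members higher in orphan over sibling numbered 1, but 0 with Xenopus rows alone and 0 without same-seed rows, where xtr-miR-363-3p fell short, and 3 with quantile normalization, which adds xtr-miR-363-5p and its duplicate xla-miR-363. Members higher in non-sibling over sibling numbered 0, but 2 with total counts (xtr-miR-25 and xtr-miR-363-3p) and 2 with quantile normalization (xtr-miR-363-5p and its duplicate, which ranged from -1.02 to 1.40 for orphan over sibling). The log2 ratios that the authors deposited for xtr-miR-363-5p, with their own offset, were short of 2-fold. They were -0.31 for sibling over orphan and 0.30 for non-sibling over sibling. Over the whole table, total counts gave 121 rows higher against 77 (orphan over sibling), 280 higher against 97 and 57 lower against 105 (non-sibling over sibling), and 30 higher against 65 and 225 lower against 109 (orphan over non-sibling); they moved the median log2 ratio of all rows by 0.24, 0.63 and -0.39. Of 162 other member values, 105 stayed within their counting interval and 57 moved beyond it. The 105 include all values of xtr-miR-363-5p and its duplicate xla-miR-363, 1 measurement with wide intervals. For orphan over sibling, xtr-miR-92a moved under 8 alternatives and stayed under 1. Of the values past 2-fold before any alternative, 0 changed sign. Some short of 2-fold did, as xtr-miR-363-5p for orphan over sibling, from 0.40 to -1.02 with 5 added counts. No paired analysis was possible because each condition has 1 library, and for the same reason none could be left out. The sibling depth limits the ratios of xtr-miR-363-5p to that library, and xbo-miR-92b has too few counts for any ratio.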

Other observations

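Among Xenopus rows, seed relatives outside the family as chosen had few counts. xtr-miR-367, which carries the seed and is known from pluripotent cells in a cluster with miR-302, had 101 counts (4.64 scaled CPM) in the orphan, 2 counts (2.83) in the sibling and 40 counts (6.08) in the non-sibling library. On 2 sibling counts its non-sibling over sibling ratio of 2.15 had an interval from 0.558 to 18.4. The opposite arm of miR-92a was listed under hsa-miR-92a-2-5p and oan-miR-92a-1-5p, each with 2 counts in the orphan library and 0 in the others, at or under the floor of 3 counts in every library.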
